A study of Mus musculus with 2 samples.

Results

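Genes of the nutrient-sensing circuit that links phosphoinositide 3-kinase (PI3K), the FOXO transcription factors and the kinase mTOR were followed across splenic natural killer (NK) cells and the cells captured with them. The 10 genes, taken by symbol from the 32285 genes in the count tables, were Foxo1, Foxo3, Pik3ip1, Txnip, Ddit4, Sesn1, Sesn3, Tsc1, Mtor and Rheb, and each symbol matched a single gene. NK cells had been sorted by flow cytometry from the spleens of control mice and of mice under dietary restriction (DR), and transcript 3′ ends of single cells had been sequenced on the 10x Genomics Chromium platform. The labels gave no strain, genotype, age, number or pooling of mice, no length or degree of restriction, and no sorting gate. Each group was 1 library, so every comparison below is between these libraries, has no replicate check and carries no test.

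Growth factor and cytokine signals activate PI3K and its kinase AKT, which phosphorylates FOXO proteins and holds them out of the nucleus. When the signal fades, FOXO proteins enter the nucleus and switch on genes of quiescence, trafficking and survival, several of which feed back on the pathway. mTOR complex 1, switched on at the lysosome by the small GTPase RHEB, drives protein synthesis and growth. The TSC complex turns RHEB off, DDIT4 (also called REDD1) acts through TSC, and sestrins hold back mTOR complex 1 when amino acids are scarce. In lymphocytes the same circuit sets metabolic activity, and in mice Foxo1 and mTOR have both been tied to NK cell maturation.

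The windows just upstream of the transcription start were read for 4 motifs tied to this circuit, and 3 windows are shown here because Txnip held 2 of the motifs while Ddit4 and Sesn3, which differed most between the libraries together with Pik3ip1, held none. The sequences are RefSeq's, on build GRCm38.p6, written 5′ to 3′ on the strand of the gene, and bases inside an exon annotated by GENCODE were left out. Capitals mark the FOXO core on the reverse strand, GTAAACA, and further downstream the carbohydrate response element. The windows lie at chr3:96557707-96557956 on the plus strand for Txnip, at chr10:59951835-59952020 on the minus strand for Ddit4 and at chr9:14276051-14276300 on the plus strand for Sesn3.
Txnip: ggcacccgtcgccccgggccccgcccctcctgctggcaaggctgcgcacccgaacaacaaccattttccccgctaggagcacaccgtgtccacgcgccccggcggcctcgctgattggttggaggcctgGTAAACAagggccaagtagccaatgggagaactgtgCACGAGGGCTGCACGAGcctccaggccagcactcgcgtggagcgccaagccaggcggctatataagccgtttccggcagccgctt
Ddit4: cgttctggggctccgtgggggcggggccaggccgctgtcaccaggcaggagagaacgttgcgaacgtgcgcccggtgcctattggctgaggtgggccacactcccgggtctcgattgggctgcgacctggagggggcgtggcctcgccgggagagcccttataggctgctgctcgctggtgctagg
Sesn3: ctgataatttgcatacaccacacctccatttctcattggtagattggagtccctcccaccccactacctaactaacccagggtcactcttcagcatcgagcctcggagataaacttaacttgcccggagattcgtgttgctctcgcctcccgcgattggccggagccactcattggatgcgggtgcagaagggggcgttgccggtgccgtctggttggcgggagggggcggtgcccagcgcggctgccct

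The FOXO core (TGTTTAC, searched on both strands) began 121 bases before the Txnip start, and the carbohydrate response element (2 copies of CACGNG separated by 5 bases, both strands), the kind of site bound by the glucose-responsive factor MLXIPL, began 85 bases before it. Among all 32851 upstream windows of 250 bases, 3.17% held the FOXO core and 0.0457%, or 15 windows, held the carbohydrate response element. The E-box CACGTG, which reads the same on both strands, was in 6.02% of windows and among the 10 genes in that of Rheb, 96 bases before its start. The ATF4 element TGATGNAA (both strands) was in 3.45% of windows and in none of those of the 10 genes. None of these matches overlapped another. The start used is RefSeq's, which for Sesn3 and Rheb lies inside the span that GENCODE gives the gene. The windows of both lie wholly inside that span, that of Rheb with its E-box. The upstream windows of Pik3ip1 and Rheb begin inside an exon of a longer GENCODE transcript and are not shown. A match describes these letters only.

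The control library held 5702 barcodes with a median of 7152 unique molecular identifiers (UMIs, each counting a captured transcript) and the DR library 6287 with a median of 5782. The median share of mitochondrial UMIs, a sign of RNA quality, was 1.63% in control and 2.57% in DR barcodes, and its part in the differences below was not tested. Of the cells kept, 4544 of 5244 control cells (86.7%) and 4230 of 5756 DR cells (73.5%) were NK-like, with all 10 NK markers at 20 or more UMIs per 1000000 UMIs (CPM) in both. ILC1-like cells numbered 302 and 418, B-like cells 125 and 460, and T-like cells 3 and 290, so that T-like cells are described in the DR library alone. A cluster led by Batf3 and with Cd3d among its 10 leading genes, of 179 control and 230 DR cells, also passed for NK but kept no name and is given apart. NK-like cells were staged by UMIs of Cd27 and Itgam (CD11b), since mouse NK cells pass from CD27 through both markers to CD11b alone. Control NK-like cells comprised 503 Cd27-only, 1081 double-positive, 2256 Itgam-only and 704 double-negative cells, and DR NK-like cells 729, 947, 1551 and 1003. Immature and mature transcripts followed these stages. In control cells Emb went from 163 CPM in Cd27-only to 13.6 CPM in Itgam-only cells, and in DR cells from 212 to 39.8 CPM. Klrg1 went from 52.2 to 340.3 CPM in control and from 41.1 to 183 CPM in DR cells. A cell without a UMI of a marker may still express it, and double-negative cells were the shallowest, with medians of 5703 and 4582 UMIs. The libraries shared 13 barcodes.

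Levels are UMIs of a gene summed over the cells of a class in 1 library, in CPM, with exact Poisson 95% intervals in parentheses. Differences are log2 ratios with exact conditional binomial 95% intervals, and both kinds cover counting error only. A gene was called higher at 25% or more above the other side and lower at 20% or more below it, provided that the interval did not include a ratio of 1. Any other gene was not called, including one past a limit whose interval included 1. Summed transcripts cannot tell fewer expressing cells from less RNA per cell.

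The first comparison set DR against control NK-like cells. Of the 10 genes, Pik3ip1 and Ddit4, both brakes on the pathway, were called higher, against 6.08% of all 9012 genes measured, and Sesn3 was called lower, against 9.50% of genes. The other 7 lay between the limits. The median log2 ratio of the 10 genes was 0.13, beside -0.04 over all genes. Of all genes called, 39.0% were higher with this scaling, 53.1% with median-of-ratios scaling and 59.2% with ribosomal protein, mitochondrial and immunoglobulin genes left out of the total. Pik3ip1 and Ddit4 were called higher under each of these scalings, and Sesn3 was called with neither of the other two, at log2 ratios of -0.31 and -0.30.

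**Figure D1:**
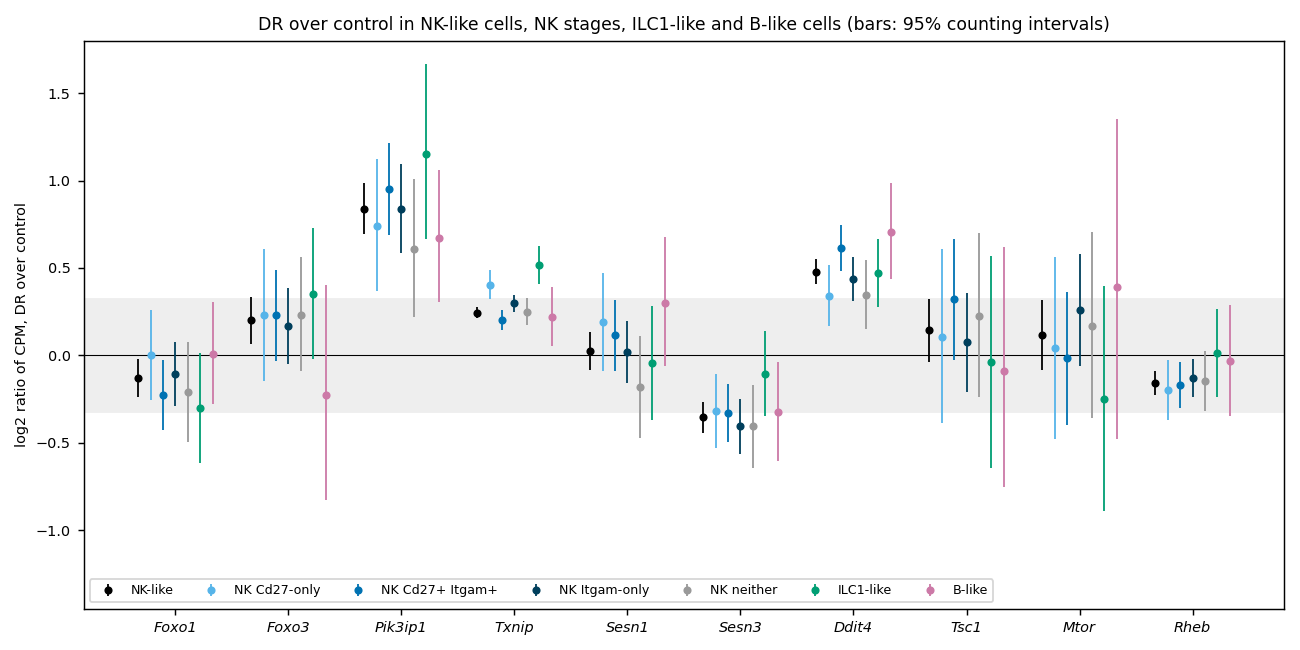
Log2 ratio of CPM, DR over control (vertical axis), for each of the 10 genes in all NK-like cells, the 4 NK stages, ILC1-like and B-like cells; points are ratios, bars exact 95% counting intervals, and the grey band spans the limits of 20% lower to 25% higher. Pik3ip1 and Ddit4 sit above the band in all 7 cell groups, whereas Sesn3 lies near or below its lower edge in NK-like cells and close to 0 in ILC1-like cells.

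FOXO factors came first in the circuit. Foxo1 (ENSMUSG00000044167, chr3:52268336-52353221, plus strand, GRCm38) encodes the FOXO factor that prevails in lymphocytes. NK-like cells held 50.3 CPM in the control library (48.0 to 52.7) and 45.9 CPM in the DR library (43.3 to 48.6), a log2 ratio of -0.13 (-0.24 to -0.02) that lay between the limits. Among stages it ran from 47.6 CPM in Itgam-only to 54.6 CPM in double-positive control cells and from 42.8 CPM in double-negative to 50.7 CPM in Cd27-only DR cells. In both libraries the intervals of neighbouring stages overlapped, so that Foxo1 showed no clear order along maturation. Outside NK-like cells Foxo1 was at 65.0 CPM in ILC1-like and 91.7 CPM in B-like control cells, and at 52.8 CPM, 92.2 CPM and 121 CPM in ILC1-like, B-like and T-like DR cells.

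Foxo3 (ENSMUSG00000048756, chr10:42181841-42276755, minus strand), a related factor, ran differently. NK-like cells held 28.3 CPM in the control library (26.5 to 30.1) and 32.5 CPM in the DR library (30.3 to 34.8), a log2 ratio of 0.20 (0.07 to 0.34) between the limits. Its level ran upward from Cd27-only through double-positive and Itgam-only to double-negative cells, with 22.5, 26.8, 29.7 and 33.1 CPM in control and 26.4, 31.5, 33.4 and 38.9 CPM in DR. Neighbouring stages overlapped in both libraries. Cd27-only and Itgam-only cells also overlapped, at 18.5 to 27.2 and 27.1 to 32.5 CPM in control and 22.2 to 31.2 and 29.6 to 37.6 CPM in DR. Only double-negative cells, which held no UMI of either marker and are not a step of maturation, lay clear of Cd27-only cells. B-like cells, at 23.1 and 19.7 CPM, and T-like cells of the DR library, at 21.5 CPM, lay at the low end, and ILC1-like cells, at 38.2 CPM and 48.7 CPM, at the high end. The 2 FOXO genes were thus opposite in B-like and T-like cells of the DR library, where Foxo1 was called higher than in NK-like cells and Foxo3 lower.

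Pik3ip1 (ENSMUSG00000034614, chr11:3330401-3342971, plus strand) encodes a membrane protein that inhibits PI3K and had the widest difference between the libraries among the 10 genes. Its level in NK-like cells was 18.7 CPM in control (17.3 to 20.2, from 662 UMIs) and 33.5 CPM in DR (31.3 to 35.8, from 852 UMIs), a log2 ratio of 0.84 (0.69 to 0.99). Control stages ran from 16.8 CPM in Itgam-only to 20.8 CPM in double-negative cells, and DR stages from 30.1 CPM in Itgam-only to 39.6 CPM in double-positive cells. The lowest DR stage thus lay above the highest control stage, and no interval of a DR stage reached one of a control stage. The log2 ratio was 0.74 (0.37 to 1.12) in Cd27-only, 0.95 (0.69 to 1.22) in double-positive, 0.84 (0.59 to 1.09) in Itgam-only and 0.61 (0.22 to 1.01) in double-negative cells. ILC1-like cells went from 18.1 CPM to 40.4 CPM (log2 ratio 1.15, 0.66 to 1.67), B-like cells from 51.1 CPM to 81.5 CPM (0.67, 0.31 to 1.06) and the Batf3 and Cd3d cluster from 13.7 CPM to 22.7 CPM (0.73, 0.06 to 1.43). The difference was therefore called in every class compared between the libraries. By class the order was T-like, B-like, ILC1-like and NK-like in the DR library, with T-like cells at 176 CPM (160.06 to 193), and B-like cells led in the control library. ILC1-like and NK-like cells did not differ beyond counting error in either library, the DR log2 ratio being 0.27 (-0.01 to 0.54).

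B-like and T-like cells were more frequent in the DR library and high in Pik3ip1, so their transcripts were counted inside NK-like cells. In NK-like cells the 10 B cell markers summed to 145 CPM for the control library and 892 CPM for DR, none of them at 0. The 9 T cell markers summed to 294 CPM and 291 CPM, with 1 at 0 in control and none in DR. NK-like Cd79a came to 7.10 CPM and 26.3 CPM, or 0.230% and 0.852% of its level in DR B-like cells, shares at which the Pik3ip1 of those cells would give 0.188 and 0.695 CPM. Cd8b1 had no UMI in control NK-like cells and 5.03 CPM in DR ones, 0.866% of its T-like level, at which T-like Pik3ip1 would give 1.52 CPM. Other B cell markers gave larger shares. Igkc stood at 0.134% and 2.92% of its DR B-like level and the whole B cell list at 0.425% and 2.62%, at which B-like Pik3ip1 would give up to 0.347 CPM in control and up to 2.38 CPM in DR. The whole T cell list stood at 4.50% and 4.45% of its T-like level. By those shares T-like Pik3ip1 would give 7.92 and 7.82 CPM. Most of each T cell sum came from 1 marker, which supplied 259 of 294 CPM (control) and 232 of 291 CPM (DR). Just 1 of the 9 markers reached 20 CPM in each library, and the source of its transcripts in NK-like cells was not tested. Cd3e stood at 0.0329% and 0.503% of its T-like level and Trac at 1.13% and 1.51%. T-like Pik3ip1 would then give 0.0578 and 0.884 CPM by Cd3e, and 1.99 and 2.65 CPM by Trac. With cells holding a UMI of any of 6 B or T cell transcripts left out, an alternative added after the data were seen, the Pik3ip1 log2 ratio was 0.82.

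Ddit4 (ENSMUSG00000020108, chr10:59949669-59951834, minus strand), induced by energy stress, low oxygen and glucocorticoids, restrains mTOR complex 1 through TSC. Its level in NK-like cells was 85.0 CPM in control (82.0 to 88.1) and 118 CPM in DR (114 to 123), a log2 ratio of 0.48 (0.41 to 0.55). Control stages ran from 78.6 CPM in Itgam-only to 98.7 CPM in Cd27-only cells and DR stages from 107 CPM in Itgam-only to 136 CPM in double-positive cells. Each DR level was above each control level, although the interval of control Cd27-only cells (89.99 to 108) overlapped those of DR Itgam-only (99.6 to 114) and double-negative cells (99.2 to 118). The log2 ratio was 0.34 (0.17 to 0.51) in Cd27-only and 0.61 (0.48 to 0.75) in double-positive cells. In Itgam-only cells it was 0.44 (0.31 to 0.56) and in double-negative cells 0.35 (0.15 to 0.55). The Cd27-only and double-negative calls were made by a narrow margin, and each held in 5 of 7 alternatives. ILC1-like cells held 131 CPM and 181 CPM (log2 ratio 0.47, 0.28 to 0.67) and B-like cells 93.1 CPM and 152 CPM (0.71, 0.43 to 0.99), while the Batf3 and Cd3d cluster, at 111 CPM and 123 CPM, lay between the limits. T-like DR cells were highest, at 287 CPM (266 to 308).

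Txnip (ENSMUSG00000038393, chr3:96557957-96561883, plus strand) encodes thioredoxin-interacting protein, an arrestin-like protein that lowers glucose uptake and is itself induced by glucose through the carbohydrate response element. Its level in NK-like cells was 557 CPM in control (549 to 565) and 659 CPM in DR (649 to 669), a log2 ratio of 0.24 (0.21 to 0.27). The interval did not include 0, yet the size lay between the limits. The level in Cd27-only cells went from 434 CPM to 575 CPM, which was called higher (log2 ratio 0.40, 0.32 to 0.49), and that in ILC1-like cells from 426 CPM to 609 CPM (0.52, 0.41 to 0.62). The Batf3 and Cd3d cluster went from 265 CPM to 351 CPM (0.40, 0.25 to 0.56). Double-positive, Itgam-only and double-negative cells had log2 ratios of 0.20, 0.30 and 0.25, and that of Itgam-only cells was called with both other scalings, at up to 0.34. All DR levels of the 7 classes compared were above the control levels of the same class.

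The sestrins act in amino acid sensing upstream of mTOR complex 1, and Sesn3 is a known FOXO target. Sesn3 (ENSMUSG00000032009, chr9:14275067-14333101, plus strand) ran against Pik3ip1, NK-like cells holding 77.7 CPM in the control library (74.8 to 80.7) and 60.8 CPM in the DR library (57.8 to 63.9), a log2 ratio of -0.35 (-0.45 to -0.26). Stage levels ran from 74.3 to 84.0 CPM in control and from 56.1 to 67.4 CPM in DR, and each DR level was below each control level. The intervals of DR Cd27-only (60.5 to 74.8) and double-positive cells (58.6 to 70.8) overlapped those of control Itgam-only (70.2 to 78.7) and double-negative cells (66.7 to 83.8). The log2 ratio was -0.33 in double-positive, -0.41 in Itgam-only and -0.41 in double-negative cells, each called lower, and -0.32 in Cd27-only cells, just between the limits. B-like cells went from 104 CPM to 83.4 CPM (-0.32, -0.60 to -0.04), called lower by a narrow margin, and ILC1-like cells, at 101 CPM and 94.1 CPM, lay between the limits. Sesn1 (ENSMUSG00000038332, chr10:41809935-41908424, plus strand) encodes a p53-inducible sestrin. It had 46.1 CPM in NK-like cells of the control library (43.9 to 48.4) and 46.9 CPM in those of the DR library (44.3 to 49.6), with a log2 ratio of 0.02 (-0.09 to 0.13). That interval lay inside the limits, and Sesn1 was not called in any of the 10 comparisons between the libraries.

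Tsc1, Mtor and Rheb, the core of the mTOR switch, were not called in any of the 10 comparisons of DR with control, those of the Itgam-only subsets included. Tsc1 (ENSMUSG00000026812, chr2:28641228-28691167, plus strand), a subunit of the TSC complex, was at 16.5 CPM (15.1 to 17.8) and 18.2 CPM (16.5 to 19.9). Mtor (ENSMUSG00000028991, chr4:148448611-148557683, plus strand), the kinase itself, was at 13.6 CPM (12.4 to 14.8) and 14.7 CPM (13.3 to 16.3). Rheb (ENSMUSG00000028945, chr5:24802823-24842624, minus strand), its activator, was at 126 CPM (123 to 129.98) and 113 CPM (109 to 117), a log2 ratio of -0.16 (-0.23 to -0.09). In double-positive cells Tsc1 stood at the limit (log2 ratio 0.32), and it was called higher there with median-of-ratios scaling (0.36), with ribosomal protein, mitochondrial and immunoglobulin genes out of the total (0.38) and with single-cell gating (0.37). Mtor was called higher in Itgam-only cells with single-cell gating (0.34). With sub-clusters weighted equally it passed the limit for higher in all NK-like cells (0.37). That weighting gave no interval, so size alone decided, and inside each of those sub-clusters the Mtor interval included 0. In all NK-like cells the intervals for Tsc1 (-0.04 to 0.32) and Mtor (-0.08 to 0.31) took in both no difference and one close to the limit for higher, so depth was a limit there.

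**Figure D2:**
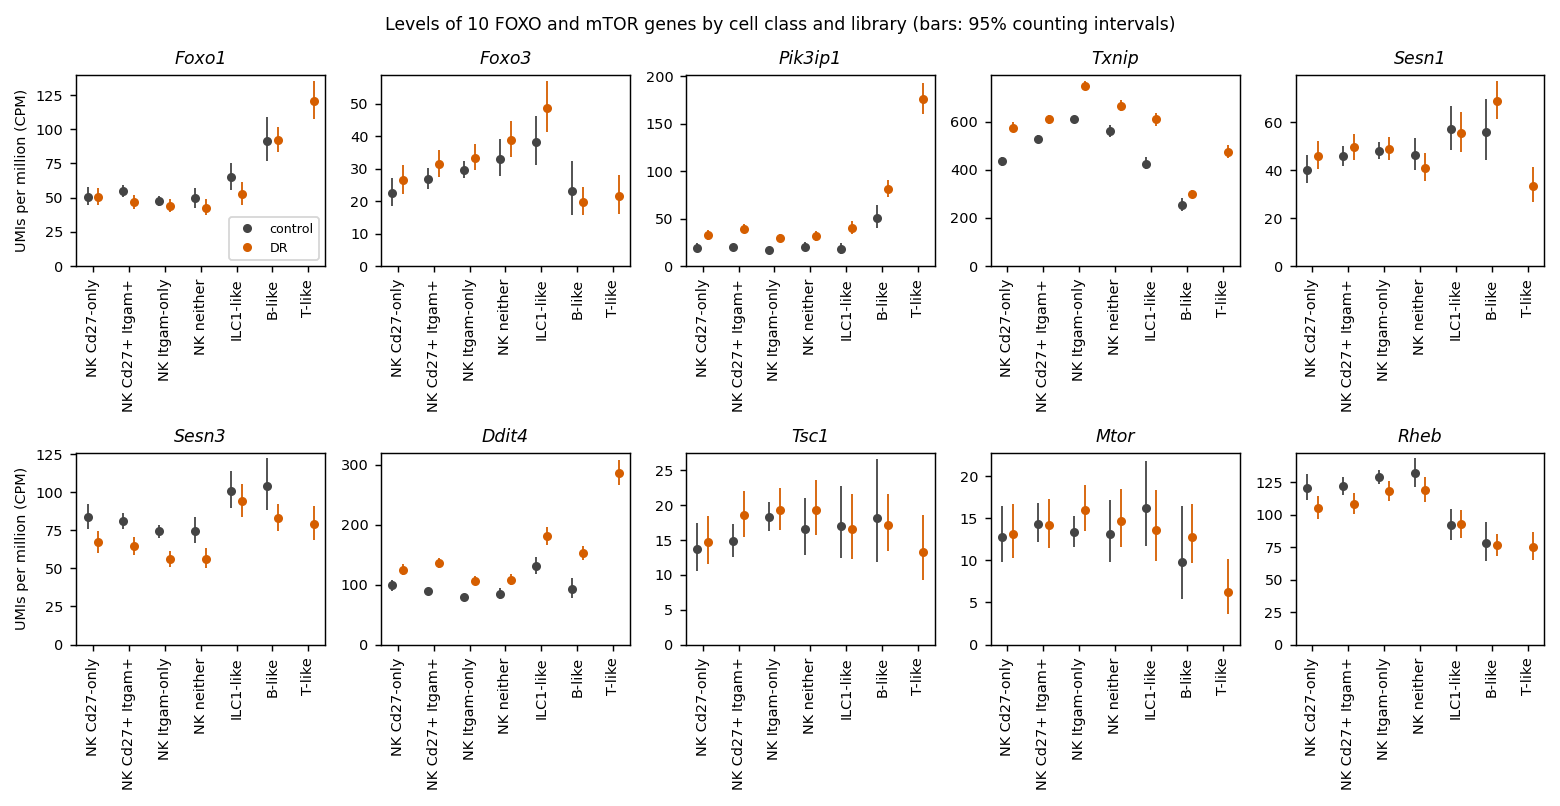
Level of each gene in CPM (vertical axis, from 0, with a scale of its own in each panel) in the 4 NK stages and in ILC1-like, B-like and T-like cells; grey points are the control and orange points the DR library, bars are exact Poisson 95% intervals, and control T-like cells (3 cells) are left out. Pik3ip1 and Ddit4 are orange above grey in every class shown for both libraries, and T-like cells reach 176 CPM of Pik3ip1.

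Counts of the 10 genes within classes stood beside their backgrounds as follows. In Cd27-only cells 3 were called higher and 0 lower, against 6.06% and 10.3% of genes. In double-positive cells 2 were higher and 1 lower (6.67% and 10.8%), in Itgam-only cells 2 and 1 (6.88% and 9.28%), and in double-negative cells 2 and 1 (5.59% and 8.28%). In ILC1-like cells 3 were higher and 0 lower (4.09% and 8.30%), in B-like cells 2 and 1 (3.90% and 8.31%), and in the Batf3 and Cd3d cluster 2 and 0 (3.09% and 9.18%). These comparisons share libraries and are not independent. Depth and marker transcripts moved with the library here too: in double-negative DR cells the B cell markers summed to 3284 CPM, led by Igkc, against 378 CPM in control, and their part in the result was not tested.

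Stages were next compared inside each library, as the number of mature cells differed between the libraries. In control cells Txnip was higher in Itgam-only than in Cd27-only cells (610.0 against 434 CPM, log2 ratio 0.49, 0.42 to 0.56), as were Foxo3 (29.7 against 22.5 CPM, 0.40, 0.09 to 0.72) and Tsc1 (18.3 against 13.7 CPM, 0.42, 0.03 to 0.83). Ddit4 was lower (78.6 against 98.7 CPM, -0.33, -0.48 to -0.17). These were 3 higher against 18.7% of all genes and 1 lower against 12.4%. In the DR library Txnip (749 against 575 CPM, 0.38, 0.32 to 0.44) and Foxo3 (33.4 against 26.4 CPM, 0.34, 0.04 to 0.64) were higher and none was lower, against 13.5% and 7.21% of genes. Ddit4 was at -0.23 there. Tsc1, at 0.39 in DR (19.3 against 14.7 CPM), was past the limit but not called, because its interval included no difference. The order of Txnip by stage, with double-positive cells in between at 529 CPM and 609 CPM, was alike in both libraries.

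The stage calls depended on scaling. Under all UMIs, 60.1% of the genes called between stages in control and 65.3% in DR were higher in Itgam-only cells, and with median-of-ratios scaling 41.1% and 41.9%. With ribosomal protein, mitochondrial and immunoglobulin genes out of the total, the shares were 35.5% and 33.8%, and all log2 ratios moved by -0.12. Under the latter the Txnip log2 ratio was 0.37 in control and 0.26 in DR, so it was called in control and not in DR. Foxo3 and Tsc1 were then between the limits, and Ddit4 was called lower in both libraries, at -0.45 and -0.35. The direction of these 4 genes was the same under every scaling. With the 2 small NK-like sub-clusters that carried other classes' markers left out, Ddit4 (-0.31) and Tsc1 (0.39) were not called in control. Over all alternatives the control call of Tsc1 held in 5 of 14. Sesn3 was also called lower in DR Itgam-only cells under both other scalings, at as low as -0.39.

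**Figure D3:**
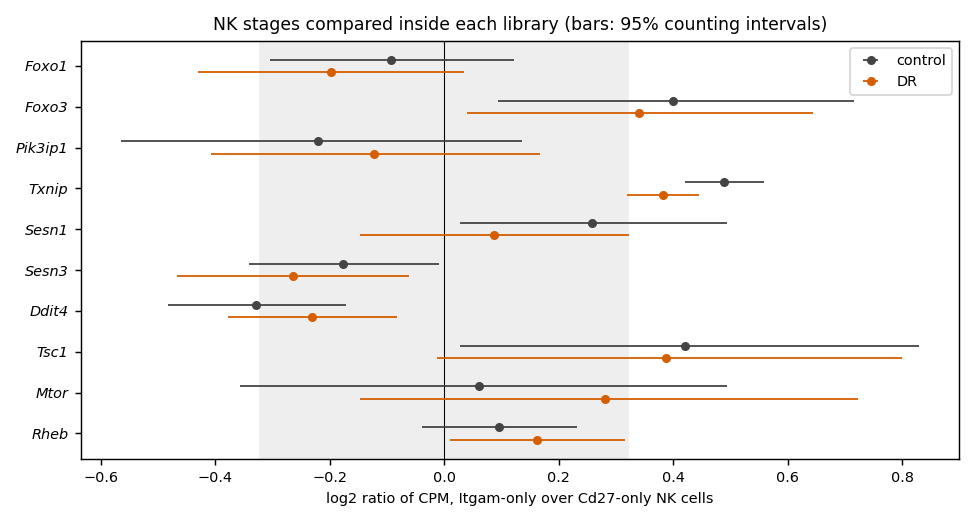
Log2 ratio of CPM in Itgam-only over Cd27-only NK-like cells (horizontal axis) for the 10 genes in the control (grey) and DR (orange) library; bars are exact 95% counting intervals and the grey band spans the limits of 20% lower to 25% higher. Txnip, Foxo3 and Tsc1 lie right of the band in both libraries, with a DR interval of Tsc1 that includes 0. Foxo1, Pik3ip1, Sesn3 and Ddit4 lie left of 0 in both.

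Few of the 10 genes were called for a step within the order. Between double-positive and Cd27-only cells none of the 10 genes was called in either library, against 7.36% of genes higher and 6.75% lower in control and 3.92% and 3.79% in DR. From double-positive to Itgam-only cells none was called in control (6.61% higher and 6.52% lower), and in DR Pik3ip1 (39.6 to 30.1 CPM, log2 ratio -0.40, -0.65 to -0.14) and Ddit4 (136 to 107 CPM, -0.35, -0.48 to -0.21) were lower, against 4.35% of genes lower and 6.78% higher. Itgam-only cells with a UMI of the terminal markers Klrg1 or Cx3cr1 numbered 1755 in control and 708 in DR. In control they had less Pik3ip1 (log2 ratio -0.63, -1.02 to -0.23) and less Sesn1 (-0.38, -0.62 to -0.13) than the other Itgam-only cells, against 4.34% of genes lower and 3.69% higher. In DR none of the 10 genes was called, against 3.39% lower and 2.88% higher, and Pik3ip1 was at -0.31 (-0.68 to 0.06). Among the Klrg1 or Cx3cr1 cells alone the Pik3ip1 log2 ratio of DR over control was 0.82 (0.47 to 1.17), with 2 of the 10 genes higher against 5.78% of genes and 1 lower against 8.62%. Among the Itgam-only cells without either it was 0.50 (0.09 to 0.92), with 2 higher against 4.92% and 1 lower against 8.19%.

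NK-like cells were also clustered without the 10 genes or the pathway lists, which gave 9 sub-clusters, 6 of them with at least 50 cells in each library. Of the 9, 2 small ones carried markers of another class and keep no name. The first, of 78 control and 49 DR cells, had Igkc, Jchain and Cd74 among its 10 leading genes, and another, of 25 and 23 cells, was led by Tmem176b and Tmem176a, with Il7r. With both left out, an alternative added after the data were seen, the log2 ratio was 0.81 for Pik3ip1, 0.48 for Ddit4 and -0.35 for Sesn3. The libraries filled the sub-clusters unequally. The sub-cluster led by Cx3cr1 and Gpx8 held 2097 control and 330 DR cells and that led by Ly6c2 and Gm10522 held 449 and 2013, while that led by Emb and Ltb held 863 and 1463. Itgam-only cells made up 70.2% and 49.1% of the first pair.

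Inside the Cx3cr1 and Gpx8 sub-cluster Pik3ip1 went from 17.4 CPM (15.3 to 19.6) in the control to 28.7 CPM (21.7 to 37.2) in the DR library, a log2 ratio of 0.73. Inside the Emb and Ltb sub-cluster it was at 24.997 CPM (21.8 to 28.6) and 40.1 CPM (36.4 to 44.1), or 0.68. In the Ly6c2 and Gm10522 sub-cluster both libraries were at the higher level, with 28.7 CPM (22.0 to 36.9) and 31.5 CPM (28.0 to 35.3), a log2 ratio of 0.14 (-0.27 to 0.56). Pik3ip1 thus differed with the sub-cluster as well as with the library, and the interval of the last reached below 0 and past the limit for higher. Among cycling cells led by Cenpf and Ube2c it was at 6.74 and 28.4 CPM on 7 and 9 UMIs, and the cells led by Spp1 and Tnfrsf9 were low in both libraries at 11.5 and 13.2 CPM. In cells led by Nr4a1 and Egr3 Pik3ip1 was at 18.5 and 24.5 CPM, a log2 ratio of 0.40 (-0.38 to 1.13). The difference was called in the Cx3cr1, Emb and Cenpf sub-clusters and not in the Ly6c2, Nr4a1 and Spp1 ones.

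Ddit4 had log2 ratios of 0.46, 0.32, 0.44 and 0.54 in the sub-clusters led by Ly6c2, Cx3cr1, Emb and Spp1, with intervals above 0, and 0.16 and 0.35 in those led by Nr4a1 and Cenpf, with intervals that included 0. Sesn3 was lower in the DR library inside the Ly6c2 sub-cluster (75.3 to 54.995 CPM, -0.45) and inside that led by the immediate early genes Nr4a1 and Egr3 (94.4 to 63.8 CPM, -0.56). It was at -0.25 in both the Cx3cr1 and the Emb sub-clusters, at -0.36 (-0.77 to 0.04) in the Spp1 cells and at 0.28 (-0.54 to 1.04) in the cycling Cenpf cells, the 1 sub-cluster of the 6 with a higher level in DR. In the Cx3cr1 sub-cluster Foxo3 went from 31.5 to 50.3 CPM (0.68, 0.35 to 0.99), and Sesn1 at 37.1 and 24.5 CPM in the Spp1 cells (-0.60, -1.17 to -0.06). Among the 6 larger sub-clusters Txnip was highest in those led by Cx3cr1 and Ly6c2, at 661 and 643 CPM in control and 801 and 787 CPM in DR, and low in the Spp1 and Tnfrsf9 cells at 313 and 350.03 CPM. With the 6 sub-clusters weighted equally, the log2 ratio was 0.63 for Pik3ip1, 0.37 for Ddit4 and -0.28 for Sesn3, which then lay between the limits.

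**Figure D4:**
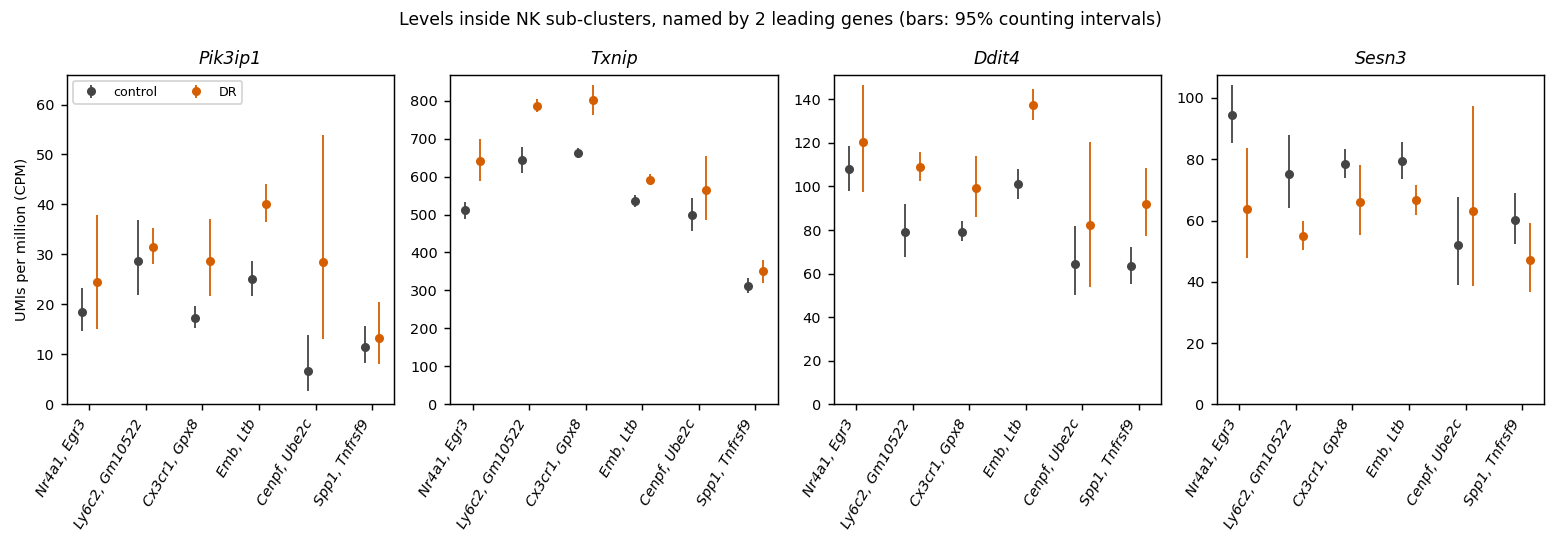
Levels of Pik3ip1, Txnip, Ddit4 and Sesn3 in CPM (vertical axes, from 0) in the 6 NK sub-clusters with at least 50 cells in each library, named by 2 leading genes; grey is the control and orange the DR library, and bars are exact Poisson 95% intervals. Pik3ip1 is nearly level between libraries in the Ly6c2 and Gm10522 cells and apart in the Cx3cr1 and in the Emb cells, and Txnip is lowest in the Spp1 and Tnfrsf9 cells.

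Other lymphocyte classes were set against NK-like cells of the same library. ILC1-like cells, which share much of the NK program, had more Ddit4 (log2 ratio 0.62 in control and 0.61 in DR), Sesn3 (0.38 and 0.63) and Foxo3 (0.43 and 0.58) in both libraries. Foxo1 was called higher in control alone (0.37, and 0.20 in DR), and Txnip (-0.39 and -0.11) and Rheb (-0.46 and -0.29) were called lower in control alone; the differences between the libraries in these ratios were not tested. This made 4 higher and 2 lower in control, against 18.0% and 12.4% of genes, and 3 higher and 0 lower in DR, against 16.6% and 11.3%.

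B-like cells had more Pik3ip1 (log2 ratio 1.45 in control and 1.28 in DR), Foxo1 (0.87 and 1.01) and Sesn3 (0.42 and 0.46), and less Txnip (-1.12 and -1.15) and Rheb (-0.69 and -0.56). Sesn1 (0.56) and Ddit4 (0.36) were also higher and Foxo3 (-0.72) lower in DR. The counts were 3 higher and 2 lower in control, against 17.5% and 37.0% of genes, and 5 higher and 3 lower in DR, against 18.1% and 41.5%. The median of all genes was -0.27 in control and -0.25 in DR on this scale, so a gene at 0 was above most genes of B-like cells. With median-of-ratios scaling Rheb (-0.31) was not called in DR, and Sesn1 (0.55) and Ddit4 (0.40) were called higher in control too.

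T-like cells of the DR library had 6.26 CPM of Mtor (3.58 to 10.2, from 16 UMIs) against 14.7 CPM in NK-like cells, a log2 ratio of -1.23 (-2.06 to -0.51). Pik3ip1 (2.39, 2.22 to 2.56), Foxo1 (1.40), Ddit4 (1.27) and Sesn3 (0.39) were higher, while Foxo3 (-0.60), Rheb (-0.59), Sesn1 (-0.48) and Txnip (-0.47) were called lower, making 4 higher and 5 lower against 13.2% and 40.3% of genes. The median of all genes was -0.29, and relative to it, under median-of-ratios scaling, Mtor stayed lower at -0.94, whereas Foxo3 and Rheb (both -0.30), Sesn1 (-0.19) and Txnip (-0.18) lay between the limits. The Batf3 and Cd3d cluster had more Foxo1 (0.54 in control and 0.51 in DR) and Sesn3 (0.58 and 0.73) and less Txnip (-1.07 and -0.91) than NK-like cells. Rheb in control (84.9 against 126 CPM) and Pik3ip1 in DR (22.7 against 33.5 CPM) were also lower, and Ddit4 in control (111 against 85.0 CPM) was higher. There 3 of the 10 genes were higher and 2 lower in control (15.2% and 18.1% of genes) and 2 and 2 in DR (12.6% and 19.1%).

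Genes whose level ran most like that of 7 of the 10 genes over the 13 points of class and library (the 4 stages, ILC1-like and B-like cells in both, T-like cells in DR) were named by Pearson r of log2(CPM + 1) among 5890 genes. These points share libraries, so the values are descriptions. Txnip ran most like Zfp36l2 (r 0.98), an RNA-binding protein gene, Foxo1 like Crlf3 (0.97), Foxo3 like Hif1an (0.93), the inhibitor of hypoxia-inducible factor, and Pik3ip1 like the ribosomal protein genes Rps29 (0.94), Rpl8 (0.93) and Rps4x (0.92). Ddit4 ran most like the translation initiation factor gene Eif3e (0.96), Sesn1 like Cst3 (0.95) and Rheb like Mpp6 (0.98). Among the 10 genes themselves, Foxo1 and Rheb ran most opposite (r -0.88) and Ddit4 and Pik3ip1 most alike (0.81).

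The rest of the pathway was read from 5 lists holding 111 genes, chosen with earlier results of these data known. Of 92 genes measured in NK-like cells, 9 were called higher and 9 lower in DR, beside 6.08% and 9.50% of all genes, so the lower count was near the background. The median log2 ratio was -0.02, beside -0.04 over all genes. The PI3K and AKT list had 2 of 18 higher and 3 lower, against the same 6.08% and 9.50%. Sgk1, a kinase that like AKT phosphorylates FOXO proteins, went from 59.6 CPM in control to 29.8 CPM in DR (log2 ratio -0.998), while Insr (4.41 to 6.84 CPM, 0.63), the insulin receptor, and Irs2 (6.73 to 10.1 CPM, 0.59), its adaptor, were higher.

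Among mTOR complexes and outputs 1 of 17 was higher and 4 were lower (6.08% and 9.50% of all genes). Prr5l (64.5 to 42.4 CPM, -0.61) and Prr5 (17.5 to 26.1 CPM, 0.58), related partners of mTOR complex 2, went opposite ways, and Rptor, the scaffold of mTOR complex 1, was lower (29.1 to 21.7 CPM, -0.42). Rictor (0.07), of complex 2, and Tsc2 (-0.09) lay between the limits. Among amino acid sensing genes 2 of 25 were higher and 2 lower, near the 6.08% and 9.50% of all genes, with Sesn2, the third sestrin, at 6.19 and 3.85 CPM (-0.68) and the arginine sensor gene Castor1 at 16.1 and 10.8 CPM (-0.58). Slc38a9, the lysosomal arginine transporter, was at 30.6 and 38.8 CPM (0.34). None of 14 energy and glucose sensing genes was called.

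Of 19 FOXO targets 5 were higher and none lower, beside 6.08% and 9.50% of all genes, with a median of 0.02. S1pr1 (23.3 to 51.6 CPM, 1.14), the lymphocyte egress receptor, Il7r (19.99 to 42.6 CPM, 1.09), the interleukin-7 receptor, and Irs2 led them, whereas Klf2, another trafficking regulator, was at -0.17. By stage, Il7r was far lower in Itgam-only than in Cd27-only cells (53.5 to 7.53 CPM in control, -2.83, and 90.5 to 16.8 CPM in DR, -2.43) and S1pr1 was lower too (-0.44 and -0.38), while Klf2 was higher (0.78 and 0.56). Il7r is a marker of immature NK, ILC1 and T cells as well, and Cd27-only cells made up 11.1% (control) and 17.2% (DR) of NK-like cells. For the 9 ILC1 markers, which include Il7r, the sums over NK-like cells were 51.0 CPM (control) and 88.9 CPM (DR), without Il7r 31.0 and 46.4 CPM, and the part of these in the result was not tested.

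**Figure D5:**
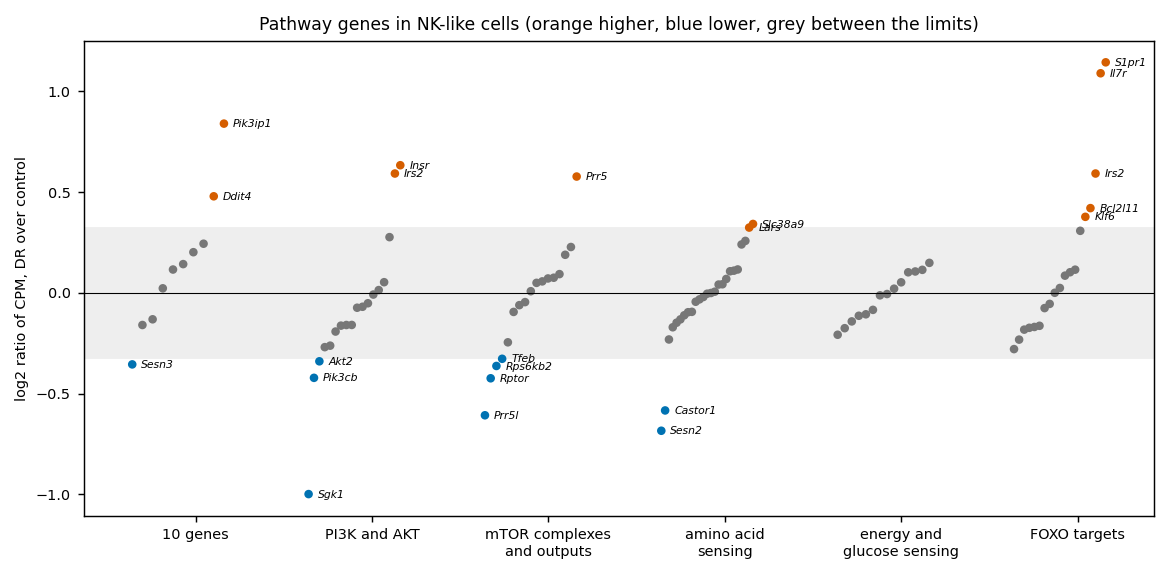
Log2 ratio of CPM, DR over control in NK-like cells (vertical axis), for the 10 genes and the measured genes of the 5 pathway lists, sorted within each list; orange points were called higher, blue points lower and grey points neither, and the grey band spans the limits of 20% lower to 25% higher. Of the listed genes 9 lie above and 9 below (Irs2 is in 2 lists), with Sgk1 lowest at -0.998 and S1pr1 highest at 1.14.

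Between stages the wider pathway was mostly called in 1 direction under this scaling. In Itgam-only against Cd27-only control cells 25 of 91 measured genes were higher and 3 lower, beside 18.7% and 12.4% of all genes, and in DR 22 and 6, beside 13.5% and 7.21%. Sgk1 (28.6 to 74.3 CPM, 1.38, in control and 19.5 to 39.7 CPM, 1.02, in DR) had the widest ratio of the PI3K and AKT list, with the catalytic subunit gene Pik3cb at 0.67 and 0.66 and Irs2 at 0.98 in DR. Rictor was higher in both (0.54 and 0.40), Tsc2 in control (0.58, and 0.23 in DR), Eif4ebp1 in control (0.45), and Prr5 lower in DR (-0.48). Rptor lay between the limits in both, at 0.26 and 0.17, and Sesn2 was not called in control at 0.37 and was too low in DR to be measured.

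Among amino acid sensing genes Bmt2 (0.68), Castor2 (0.62) and Castor1 (0.41) had the widest ratios in control, and in DR Castor1 (0.96), Kptn (-0.51), a KICSTOR subunit, and Lamtor5 (0.44), a Ragulator subunit. The Txnip relative Arrdc3 was higher in both (0.89 and 0.92), as was the deacetylase gene Sirt1 (0.44 and 0.43), with the glucose transporter gene Slc2a3 at 0.76 in control and Strada at 0.34 in DR. Of the FOXO targets, Gadd45a (0.77 in control) and Cdkn1a (0.96 in DR, on 3.64 and 7.07 CPM) were higher. With median-of-ratios scaling 19 pathway genes were higher and 5 lower in control, beside 11.6% and 16.6% of all genes, and 12 were higher and 8 lower in DR, beside 7.71% and 10.7%.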

How the data were processed

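What the authors deposited were raw UMI counts, 1 matrix of genes by barcodes for each library, made with Cell Ranger. Per the file headers this was version 5.0.1, while version 2.1.1 and build mm10 stand in the submitters' processing notes, and the files do not settle which was run. No barcode held fewer than 501 UMIs, so free RNA could not be estimated from empty droplets. A barcode was kept if it had 500 or more genes and no more than 10% of mitochondrial UMIs (215 control and 167 DR removed). The automatic Scrublet threshold called 0 doublets in both libraries and was judged not to have worked, so the top-scoring cells at 0.8% per 1000 cells were removed (243 control, 364 DR). For clustering alone, each cell was brought to a total of 10000 and logged; both libraries were clustered jointly and without batch integration, with scanpy 1.11.5 (2000 variable genes without the 10 genes and the pathway lists, 30 components, 15 neighbours, Leiden resolution 0.6). Clusters were named from marker lists: a marker counted at 20 CPM and 25% of the highest cluster, a name needed 3 markers and 50% of its list, and a cluster led among its top 10 genes by more markers of another class stayed unnamed. These rebuilt names may differ from those of the study.

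Raw counts were summed per class and library and divided by all UMIs of those cells. A gene was measured in a comparison when the mean of its 2 levels was 5 CPM or more, and all 10 genes were in every comparison. The ratios, intervals and calls were tested on simulated sums with planted changes larger than the limits, and the summing itself was not tested. Named pathway genes were up to 3 called genes per list and comparison with the widest ratio, plus Sgk1, Klf2, S1pr1, Il7r, Rptor, Rictor, Tsc2 and Sesn2; Foxo1 and the other 9 genes are named throughout. Some genes that these rules name are not reported here. The 10 genes and all lists were chosen with earlier results of these data known. Gene coordinates are those of GENCODE vM21 (GRCm38), and all 10 symbols matched RefSeq's upstream table.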

Additional observations from a re-analysis of the deposited data

How the results depend on the processing

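Each group was 1 library, so leaving out a replicate was not possible, and depth limits Mtor and Tsc1 most. No paired analysis was possible because each group held 1 library and no result comes from a test. Between the libraries in all NK-like cells, Pik3ip1 (log2 ratio 0.63 to 0.90) and Ddit4 (0.34 to 0.54) were called higher in 16 of 16 alternatives, and Sesn3 (-0.41 to -0.28) lower in 12 of 16. Where stages or sub-clusters were weighted equally no interval was computed, so those calls went by size alone. No result turned its direction among called values. Of the single-gene ratios under an alternative, 779 moved by less than their counting interval and 54 by more; of the counts of genes called, 212 stayed within 1.5 times and 48 did not. The cause was not tested except where fewer UMIs or cells follow from the alternative itself.

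The counts that moved follow, where "stage" means Itgam-only over Cd27-only and main counts stand in the report. With median-of-ratios scaling, 0 of the 10 genes were lower in NK-like and in double-positive cells between libraries, against 7.11% and 8.19% of all genes. By stage 1 was higher in control, 0 higher and 2 lower in DR, with 5 other pathway genes lower in control and 12 higher in DR. Of all genes, 11.6% were higher and 16.6% lower by stage in control, and 7.71% and 10.7% in DR. Against NK-like cells 1 was lower in DR ILC1-like, 5 higher in control B-like and 1 lower in DR T-like cells. The shares of all genes called in those directions were 13.1%, 25.5% and 21.0%. With ribosomal protein, mitochondrial and immunoglobulin genes out of the total, 0 were lower in NK-like and in double-positive cells, against 6.23% and 7.34% of all genes. By stage 1 was higher in control, 0 higher and 2 lower in DR, with 14 pathway genes higher and 7 lower in control and 10 higher in DR. Of all genes, 9.96% were then higher and 18.1% lower by stage in control, and 6.24% and 12.2% in DR.

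For the alternatives that follow, the share of all genes called was not computed, so their counts have no background beside them. With each cell thinned to 2000 UMIs, which restaged the cells and left 160 control and 186 DR double-positive cells, 0 were higher and 0 lower in double-positive cells. By stage 1 was higher and 0 lower in control and 0 higher in DR, with 11 pathway genes higher in each library. With single-cell gating, 0 were higher and 0 lower in double-negative cells, and by stage 0 were lower in control, 1 higher and 1 lower in DR, with 1 pathway gene lower in control and 3 in DR. With doublets kept, 1 was higher by stage in DR. With at most 5% mitochondrial UMIs, or with cells holding Mki67 or Top2a UMIs left out, 1 (Sesn3) was lower in Cd27-only cells between libraries; the latter also gave 16 pathway genes higher by stage in control and 0 of the 10 genes higher in DR. With sub-clusters weighted equally 0 were lower between libraries. With 2 UMIs required for a single-positive cell, 0 were lower by stage in control, and 4 higher and 1 lower in DR. With Itgam-only cells limited to those with Klrg1 or Cx3cr1, 1 was lower by stage in DR. Among alternatives chosen after seeing the data, counting the Batf3 and Cd3d cluster as NK-like gave 0 lower between libraries and, by stage, 1 higher and 2 lower in control and 1 lower in DR; leaving out the sub-cluster led by Hist1h1b and Igkc, alone or with that led by Tmem176b, gave 0 lower by stage in control.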
